A study of Mus musculus with 2 samples.

Results

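The colony-stimulating factors (CSFs), the cytokines that make and maintain macrophages, monocytes and granulocytes, were followed with their receptors in single cells of mouse pancreatic tumours. The group held 8 genes of the 32285 listed: the ligands Csf1, Il34, Csf2 and Csf3 and the receptor chains Csf1r, Csf2ra, Csf2rb and Csf3r. They were chosen by name, not by level, and all 8 had at least 1 unique molecular identifier (UMI, a tag that counts an RNA molecule) in the cells kept, as did 26033 of all genes. Droplet 3′ RNA sequencing was done on 2 libraries, both from tumours that grew for 21 days after KPC mouse pancreatic cancer cells were placed in the pancreas. The control library came from Porcn fl/fl mice without Cre, which the labels call WT, and the knockout library from Csf1r-Cre;Porcn fl/fl littermates, described as lacking Porcn in macrophages. Both groups therefore carried the floxed Porcn allele, and Porcn encodes the acyltransferase on which the secretion of Wnt proteins depends. The age, sex and strain of the mice are not given in the sources used here. Each library pooled the tumours of 5 mice, so every comparison below is between 1 library and 1 library, has no replicate check and carries no p-value.

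M-CSF, the product of Csf1, and IL-34, the product of Il34, are the ligands of the receptor tyrosine kinase CSF1R, on which most tissue macrophages depend for survival. GM-CSF, from Csf2, binds a ligand-specific alpha chain (Csf2ra) that pairs with the beta chain (Csf2rb) which the IL-3 and IL-5 receptors also use. G-CSF, from Csf3, acts on CSF3R and drives the making and release of neutrophils. Csf1r has a further role in this design, since its regulatory sequence drives the Cre: a class that transcribes Csf1r, now or in its ancestry, is one in which Csf1r-Cre could have acted. No value of these data shows where the recombination took place. Porcn itself had 7 UMIs in control and 3 in knockout macrophage-like cells, too few to check the deletion, and a 3′ tag may lie outside the deleted part.

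Cells were clustered with the 8 genes left out and classes were named from other markers, each name meaning that the cluster was like that type. The kept cells numbered 11516 in the control and 10467 in the knockout library, with a median of 12167.5 and 10109 UMIs per cell. Tumour-type cells, counting the epithelial/tumour-like class and a set of clusters next to it that kept no name, made up 82.0% of control and 55.1% of knockout cells. T-like cells were 190 and 1619 and B-like cells 8 and 449. Because the makeup of the libraries differed this much, levels are given within classes as CPM, the UMIs of a gene scaled to 1000000 UMIs of the class, and the ranges in brackets are exact 95% Poisson intervals. Those ranges, and the exact conditional intervals of ratios, cover counting error only. The libraries shared 38 cell barcodes among the kept cells.

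**Figure D1:**
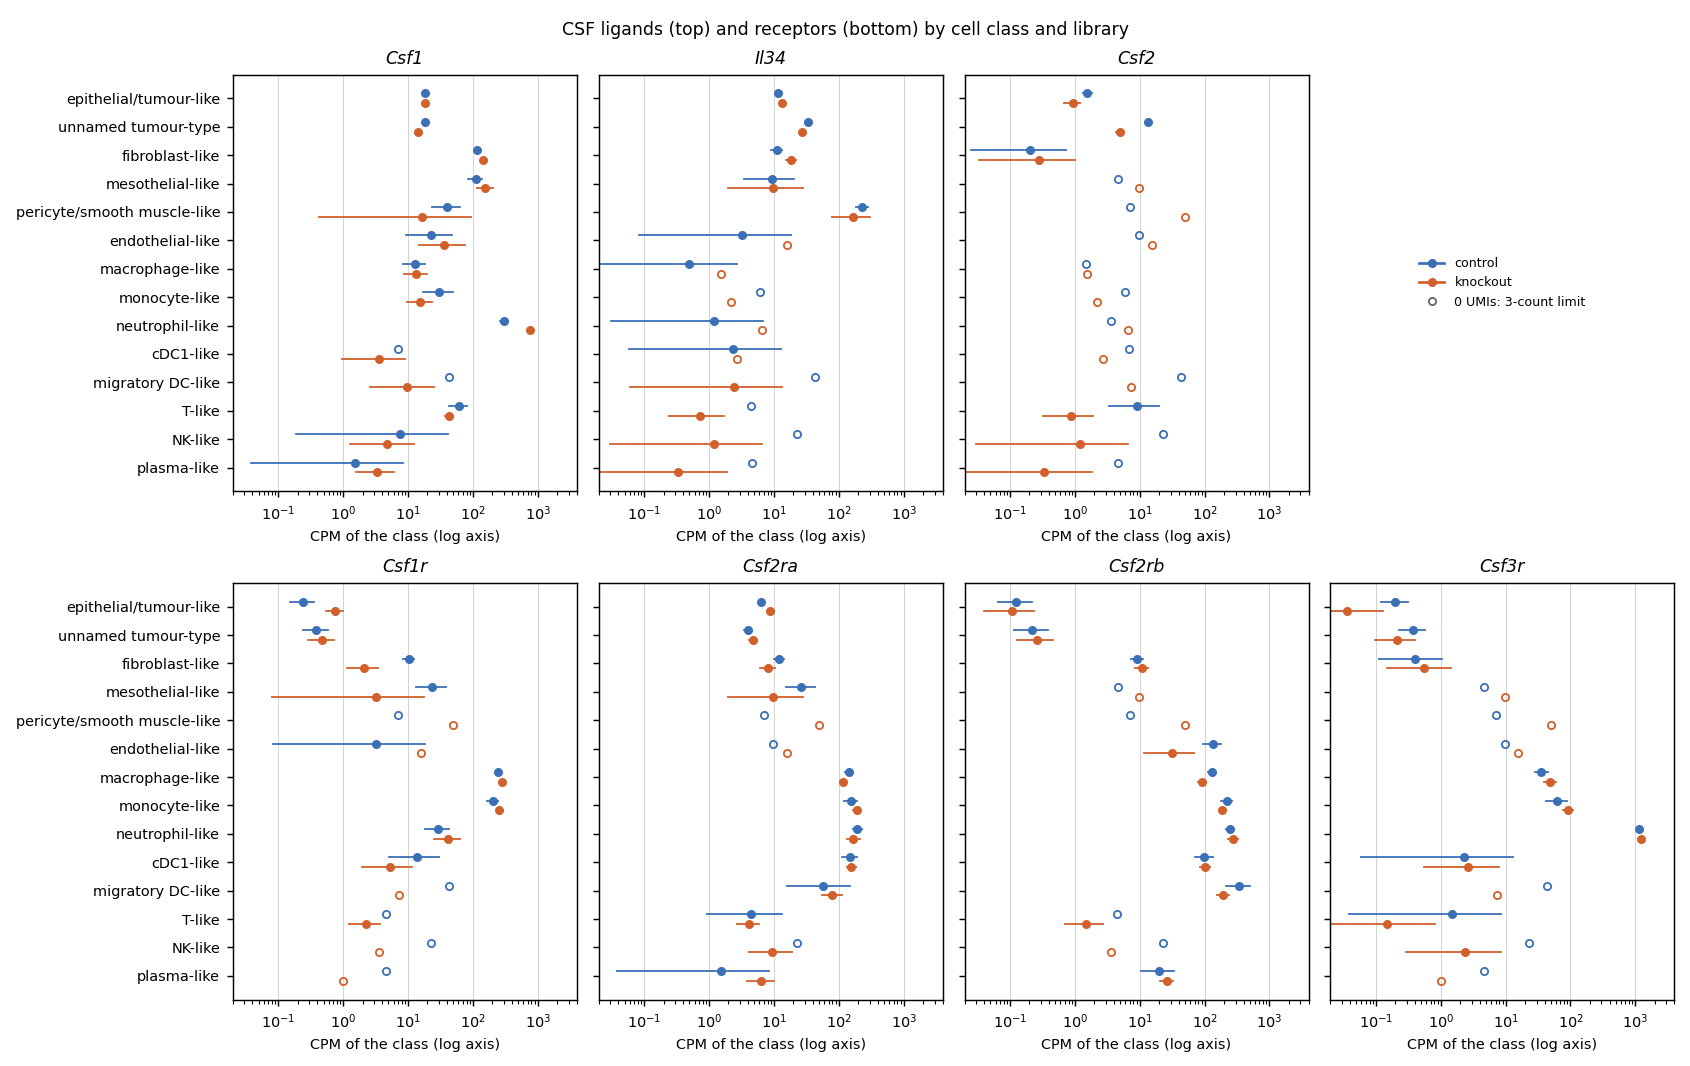
Level of 7 of the 8 genes in each cell class, in CPM on a log axis, with the control and knockout libraries side by side; bars are exact 95% Poisson intervals and an open marker stands at the limit that 0 UMIs allow. Csf1 is highest in neutrophil-like cells (303 and 751 CPM), Il34 in pericyte or smooth muscle-like cells (231 and 166 CPM), Csf1r in macrophage-like cells (242 and 277 CPM) and Csf3r in neutrophil-like cells (1139 and 1232 CPM).

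Csf1, which encodes M-CSF, had its highest level in neutrophil-like cells of both libraries and was 2.48-fold higher there in the knockout library. Those cells held 250 Csf1 UMIs in 293 control cells, or 303 CPM (266 to 343), and 347 UMIs in 185 knockout cells, or 751 CPM (674 to 835). The ratio had an interval of 2.10 to 2.93 and the log2 ratio was 1.31. Csf1 was the only 1 of the 5 member genes with enough UMIs in this class that passed 2-fold, and it did so upwards; of all 5785 genes tested there, 7.42% were at least 2-fold higher and 7.29% at least 2-fold lower. Next in order came fibroblast-like cells at 115 CPM (1133 UMIs) and 144 CPM (1039 UMIs) and mesothelial-like cells at 110 CPM (70 UMIs) and 154 CPM (48 UMIs), neighbours that did not differ beyond their intervals. Below them were T-like cells at 60.2 and 42.4 CPM and epithelial/tumour-like cells with 18.3 CPM in the control and 18.4 CPM in the knockout. Macrophage-like cells, which carry the receptor, were near the bottom at 12.7 CPM (26 UMIs) and 13.3 CPM (26 UMIs).

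The neutrophil-like class was made of 3 clusters in different proportions. Cluster L16, led by Cxcl2, Il1b and Acod1, genes of an activated neutrophil, held 135 control and 142 knockout cells and the most Csf1: 213 UMIs, or 888 CPM (773 to 1015), and 318 UMIs, or 1080 CPM (965 to 1206). Within it the ratio was 1.22 (1.02 to 1.45). L16 scored 0.814 for neutrophil markers and 0.75 for mast cell or basophil markers. Whether it also held such cells was not tested. Cluster L6, led by Retnlg and Cxcr2, had 35 UMIs, or 197 CPM (137 to 274), in 104 control cells and 28 UMIs, or 449 CPM (298 to 649), in 32 knockout cells, a ratio of 2.28 (1.34 to 3.86). The third, L10, led by the granule genes Camp and Ltf, had 54 control and 11 knockout cells. Its cells were deeper, at a median of 5527 UMIs against 1691 in L16 and 1684.5 in L6. L10 therefore weighed more in the class CPM than its number of cells shows. With the clusters weighted alike in both libraries, a calculation added after the data were seen, the class level was 448 and 583 CPM and the log2 ratio 0.38, under 2-fold. As a mean over cells the log2 ratio was 0.73, also under 2-fold, and with a stricter cell filter it was 2.35. Csf1 was thus higher in the knockout library in both of the clusters with most of its UMIs, by less than the class-level ratio.

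**Figure D2:**
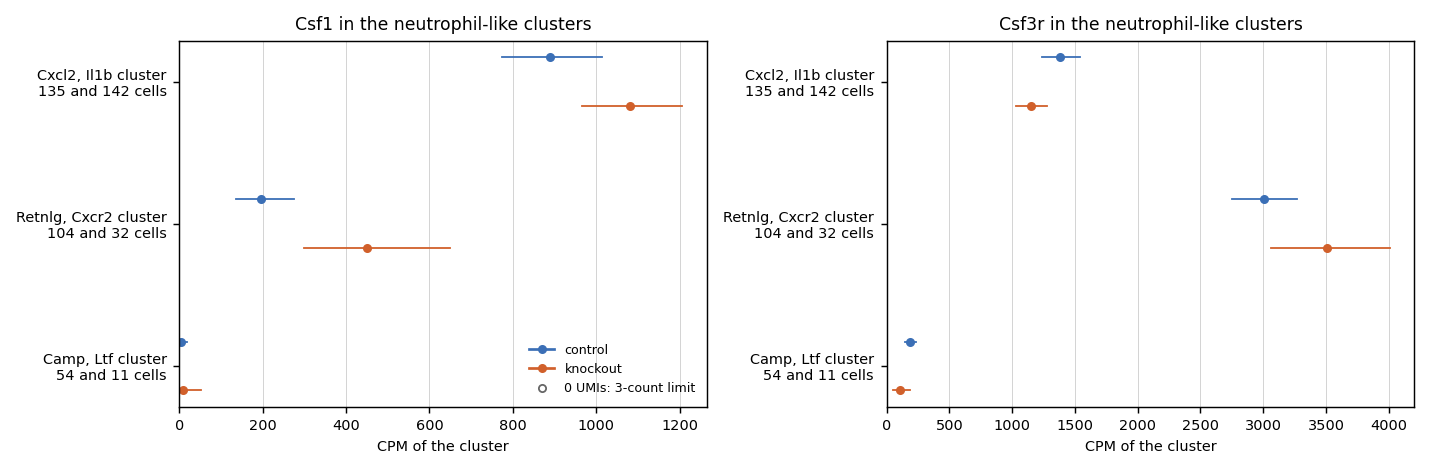
Csf1 and Csf3r in the 3 neutrophil-like clusters, in CPM, control and knockout libraries side by side, with exact 95% Poisson intervals. Csf1 is highest in L16 (888 and 1080 CPM) and Csf3r in L6 (3005 and 3510 CPM).

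In cells thinned to 1000 UMIs each, a Csf1 UMI was seen in 25.8% of 279 control neutrophil-like cells (20.8 to 31.4, exact Clopper-Pearson interval) and 35.0% of 183 knockout cells (28.1 to 42.4), leaving out 14 and 2 shallower cells. Without thinning the shares were 30.4% and 50.3%. In macrophage-like cells thinned alike they were 1.28% and 0.699%. The 10 neutrophil-like cells with most Csf1 held 82 of the 250 control UMIs and 126 of the 347 knockout UMIs from 89 and 93 cells with Csf1.

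As a sender of Csf1, each class was also weighed by its share of all Csf1 UMIs. Tumour-type cells together held 63.0% of them in the control and 46.4% in the knockout library, less than their 88.9% and 76.4% of all UMIs. Fibroblast-like cells held 26.1% and 29.3% from 5.82% and 5.59% of the UMIs, and neutrophil-like cells 5.76% and 9.80% from under 1% of them (0.489% and 0.357%). T-like cells went from 0.921% to 8.11% of Csf1 UMIs, beside 0.394% and 5.24% of all UMIs. Their Csf1 level was 60.2 CPM (40 UMIs) and 42.4 CPM (287 UMIs), a ratio of 0.704 (0.505 to 1.01), and it stood mostly in the CD8-type cluster L14 at 90.5 and 77.7 CPM, where the ratio was 0.859 (0.588 to 1.29). L14 had 100 of 190 control but 561 of 1619 knockout T-like cells, and L15, led by Skap1, Trbc2, Themis and Lef1 and low in Csf1, had 22 and 474. Neither of the 2 members with enough UMIs in T-like cells passed 2-fold, where 4.37% of genes were that much higher and 5.79% that much lower.

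Among fibroblast-like cells Csf1 was 1.25-fold higher in the knockout library (1.14 to 1.36), but this did not hold across clusters. Of the 8 clusters with at least 10 cells in each library, 3 had the higher level in the knockout and 5 in the control library, and with clusters weighted alike the log2 ratio was -0.07. Clusters S11 and S15 went opposite ways, at 282 and 122 CPM in the first and 141 and 258 CPM in the second. In the epithelial/tumour-like class the log2 ratio was 0.01, and in the unnamed tumour-type clusters, at 18.1 CPM (986 UMIs) and 14.3 CPM (608 UMIs), it was -0.34. Of the 11 tumour clusters that had 30 cells or more in both libraries, Csf1 was higher in 4 and lower in 7 of the knockout values.

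The 250 bases before the RefSeq start of Csf1 are shown because the gene's highest class is one led by inflammatory cytokine genes, and the capitals mark a stretch that holds the kappaB-type motif GGGANNNTCC, once on each strand in overlapping positions. The stretch begins 155 and ends 145 bases before the start. The window is chr3:107760470-107760719 on the minus strand of GRCm38.p6, and Csf1 itself lies at chr3:107741048-107760469.
Csf1: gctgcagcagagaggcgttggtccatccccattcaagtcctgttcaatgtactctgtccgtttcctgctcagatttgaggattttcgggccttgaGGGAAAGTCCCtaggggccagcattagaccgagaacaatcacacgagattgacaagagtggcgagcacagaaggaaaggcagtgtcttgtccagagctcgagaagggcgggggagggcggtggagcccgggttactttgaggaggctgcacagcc
The motif occurs on either strand in 3.86% of 32851 promoter windows of 250 bases, so the match describes these letters and is not evidence of binding. The Csf1 window had no match of the PU.1-type motif GAGGAA, the Csf2 window had none of either motif, and the Csf3r window had 1 of each. RefSeq promoter entries were matched for Csf1, Csf2, Csf2ra and Csf3r.

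Il34, the gene for the second ligand of CSF1R, was read from other cells than Csf1: pericyte or smooth muscle-like cells had the highest level and tumour-type cells most of the molecules. The first held 98 UMIs in 52 control cells, or 231 CPM (188 to 282), and 10 UMIs in 9 knockout cells, or 166 CPM (79.6 to 305), intervals that overlap widely. Tumour-type cells held 92.5% of all Il34 UMIs in the control and 89.2% in the knockout library, and within them the unnamed clusters were the higher, at 33.1 CPM (1802 UMIs) and 27.3 CPM (1161 UMIs). There the log2 ratio was -0.28. Cluster A5, led by Grem1, Dkk2 and Bmp2, which encode antagonists and a ligand of the Wnt and BMP pathways, had 43.7 and 22.1 CPM, a ratio of 0.506 (0.383 to 0.657). Of the 11 tumour clusters 3 had more Il34 per UMI in the knockout library and 8 had less, and in 3 of those 8 the interval lay below 1. The epithelial/tumour-like class had 11.4 CPM (1087 UMIs) and 13.4 CPM (754 UMIs), a log2 ratio of 0.24 that turned negative under several other ways of drawing the class.

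Fibroblast-like cells had 109 Il34 UMIs, or 11.1 CPM, in the control and 134 UMIs, or 18.5 CPM, in the knockout library, a ratio of 1.67 (1.29 to 2.17). Their Il34 stood mostly in clusters S4, at 44.1 and 48.6 CPM, and S11, at 41.6 and 29.9 CPM. S4 had 28 control and 119 knockout cells, and the part of cluster makeup in the class-level ratio was not tested. Leukocytes were almost without Il34: macrophage-like and neutrophil-like cells each had 1 UMI in the control and 0 in the knockout library, and monocyte-like cells had 0 in both. IL-34's other known receptors, Ptprz1 and syndecan-1 (Sdc1), were read too. Ptprz1 had no more than 2 UMIs in any class named here, while Sdc1 had 238 CPM in control and 208 CPM in knockout epithelial/tumour-like cells. Sdc1 was also read at 58.3 CPM (119 UMIs) and 23.0 CPM (45 UMIs) in macrophage-like cells and at 103 and 38.6 CPM in fibroblast-like cells, log2 ratios of -1.32 and -1.42. The epithelial keratin gene Krt8, which those cells should lack, moved the same way, from 169 to 69.4 CPM in the first and from 301 to 74.3 CPM in the second. Among the fibroblast-like clusters Krt8 was highest in S9, at 1278 and 729 CPM in 75 control and 27 knockout cells. S9 scored 0.754 for fibroblast markers and 0.437 for epithelial/tumour markers. The part of tumour RNA and of cluster makeup in the Sdc1 values was not tested.

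Csf2, which encodes GM-CSF, came almost wholly from tumour-type cells and was lower in the knockout library in nearly every cluster that held it. Over all kept cells it had 899 UMIs, or 5.33 CPM (4.99 to 5.69), in the control and 275 UMIs, or 2.13 CPM (1.88 to 2.39), in the knockout library, a log2 ratio of -1.32. It was the 1 member of 7 measured over all cells that passed 2-fold, in the lower direction, where 2.69% of genes were at least 2-fold lower and 11.7% at least 2-fold higher. Tumour-type cells held 98.6% and 96.0% of the Csf2 UMIs, and the unnamed clusters alone 82.0% and 77.1%. In those unnamed clusters the level was 13.5 CPM (12.6 to 14.6, 737 UMIs) and 4.98 CPM (4.34 to 5.70, 212 UMIs), a ratio of 0.368 (0.314 to 0.429) and a log2 ratio of -1.44. Again Csf2 was the 1 member of 7 past 2-fold, beside 4.79% of genes at least 2-fold lower and 2.73% at least 2-fold higher. The epithelial/tumour-like class had much less, 1.56 CPM (149 UMIs) and 0.925 CPM (52 UMIs), a ratio of 0.594 (0.425 to 0.82), and its log2 ratio of -0.73 lay between -0.13 and -1.40 under other settings.

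Of the 11 tumour clusters compared, 10 had less Csf2 per UMI in the knockout library, 0 had more and 1, A22, had no Csf2 UMI. In 5 of the 10 the interval of the ratio lay below 1. These intervals count each UMI as independent, while in the unnamed clusters 10 cells of each library held most Csf2 UMIs. The intervals are therefore too narrow. The cycling cluster A10, led by Prl2c2 and Cenpf, had 20.6 CPM (339 UMIs) and 8.50 CPM (87 UMIs), a ratio of 0.412. Cluster A6, led by Grem1, Areg and Prl2c genes, had 15.4 CPM (248 UMIs) and 4.53 CPM (102 UMIs), a ratio of 0.293. Cluster A5, the one with less Il34 in the knockout library, went furthest, from 83 UMIs at 6.59 CPM to 1 UMI at 0.351 CPM, a ratio of 0.0533. The remaining pair were A2, led by Areg and the hypoxia genes Pgk1 and Ndrg1, with a ratio of 0.442, and A3, led by interferon-response genes, with a ratio of 0.350. Lower values were thus read in clusters of unlike programmes, and how far each rests on a few cells was not tested.

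**Figure D3:**
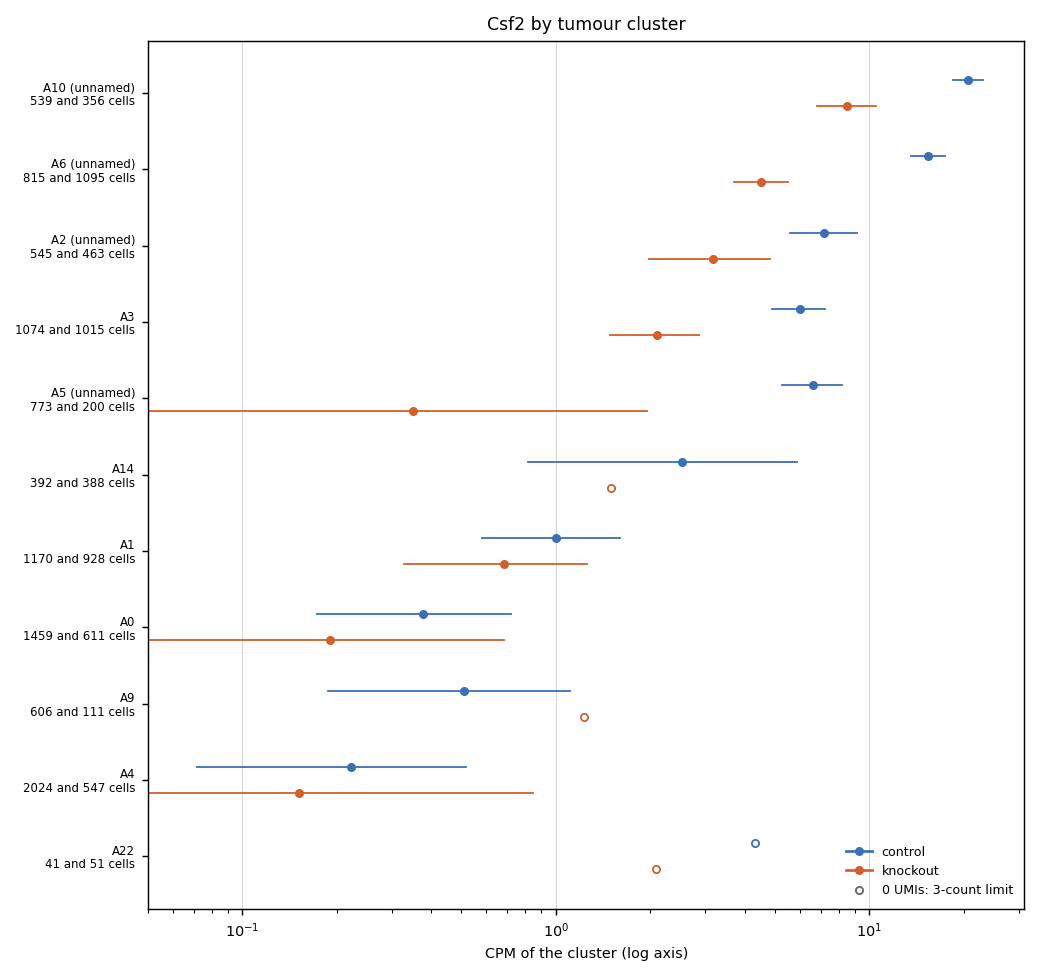
Csf2 in the 11 tumour-type clusters with at least 30 cells in each library, in CPM on a log axis, with exact 95% Poisson intervals; an open marker stands at the limit that 0 UMIs allow. In 10 of the 11 the knockout value lies below the control value, and A22 has 0 UMIs in both libraries.

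Csf2 was concentrated in few cells. A Csf2 UMI was found in 131 of 2672 control cells of the unnamed clusters (4.90%) and 59 of 2114 knockout cells (2.79%), and after thinning to 1000 UMIs in 0.75% and 0.284%, a level too near that of 1 UMI to read a change from. The 10 cells with most Csf2 held 403 of 737 control UMIs, with up to 87 in a cell, and 128 of 212 knockout UMIs, with up to 31. Without them 334 and 84 UMIs were left. No Csf2 UMI was found in the 319 control and 290 knockout macrophage-like cells, which allows a share of cells with a Csf2 UMI of up to 0.94% and 1.03% and limits detection at their depth, not expression, nor in any monocyte-like or neutrophil-like cell. T-like cells, a textbook source of GM-CSF, had 6 UMIs in 190 control cells and 6 in 1619 knockout cells. In the control unnamed clusters 77 cells had both Csf2 and Il34: 9.20% of cells with an Il34 UMI had Csf2 against 2.94% of the others, and 6.36% against 1.23% in the knockout library. The control cells with Il34 were also deeper, at a median of 24144 against 14304 UMIs, and the part of depth was not tested.

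Csf3, the gene for G-CSF, was close to absent. It had 9 UMIs in the control library, of which 4 were in the unnamed tumour-type clusters, 2 in fibroblast-like cells, 2 in endothelial-like cells and 1 in the epithelial/tumour-like class, and 1 UMI, also in that last class, in the knockout library. No difference was detectable at this depth.

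Csf1r, the receptor of M-CSF and IL-34, was highest in macrophage-like and monocyte-like cells and slightly higher there in the knockout library. Macrophage-like cells had 494 UMIs, or 242 CPM (221 to 264), and 542 UMIs, or 277 CPM (254 to 301), a ratio of 1.14 (1.01 to 1.30). Monocyte-like cells had 100 UMIs, or 201 CPM, and 344 UMIs, or 252 CPM, a ratio of 1.25 (1.0 to 1.58). None of the 5 members measured in macrophage-like cells passed 2-fold, where 2.71% of genes were at least 2-fold higher and 3.73% at least 2-fold lower, and none of 5 in monocyte-like cells, where the shares were 6.81% and 7.46%. The macrophage-like clusters stood apart in both libraries: L3, led by C1q genes, Ms4a7 and Mrc1 of resident-type macrophages, had 329 and 372 CPM, and L0, led by Mmp12 and Arg1, had 197 and 172 CPM. L3 had 157 control and 198 knockout cells, and L0 162 and 92. When cells were named by their own marker scores, without clusters, the macrophage log2 ratio was 0.01 in place of 0.19, and with both clusters weighted alike it was 0.03.

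A Csf1r UMI was seen in 18.5% of control and 24.5% of knockout macrophage-like cells thinned to 1000 UMIs, and in 59.9% and 69.7% without thinning, at median depths of 4232 and 5734.5 UMIs. Macrophage-like cells held 60.0% of all Csf1r UMIs in the control and 52.9% in the knockout library, and monocyte-like cells 12.1% and 33.6%, with 201 and 359 cells. All kept cells together had 824 UMIs, or 4.88 CPM, and 1024 UMIs, or 7.92 CPM, a ratio of 1.62 (1.48 to 1.78), while the tumour-type share of cells was lower in the knockout library.

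Outside the macrophages and monocytes, the Cre driver gene was read in neutrophil-like, fibroblast-like and mesothelial-like cells. Neutrophil-like cells had 24 Csf1r UMIs, or 29.1 CPM, and 19 UMIs, or 41.1 CPM, in 19 and 14 cells. Of those cells 0 and 1 also had a C1q UMI, the macrophage complement genes, and 18 and 14 had Tyrobp, a myeloid adaptor. The conventional dendritic (cDC1-like) cells had 6 UMIs in each library, at 13.9 and 5.36 CPM. No Csf1r UMI was found in pericyte or smooth muscle-like cells of either library, nor in NK-like, plasma or migratory dendritic-like cells. T-like cells had 0 in the control and 15, in 8 cells, in the knockout library.

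In fibroblast-like cells Csf1r was at 10.4 CPM (8.47 to 12.6) from 102 UMIs in the control and at 2.08 CPM (1.16 to 3.42) from 15 UMIs in the knockout library. The ratio was 0.20 (0.108 to 0.345) and the log2 ratio -2.24. Csf1r was the 1 member of 5 past 2-fold in this class, where 6.90% of genes were at least 2-fold lower and 8.05% at least 2-fold higher. The control UMIs came from 55 of 639 cells (8.61%), of which 23 had at least 2 and the highest had 6, and the knockout UMIs from 13 of 734 cells (1.77%). All 55 control cells had a UMI of the collagen gene Col1a1, 3 had a C1q UMI, 1 had the leukocyte gene Ptprc and 3 had Tyrobp. For each 1000 C1q UMIs there were 785 Csf1r UMIs in control and 417 in knockout fibroblast-like cells, against 36.3 and 31.1 in macrophage-like cells. The C1q UMIs of the control class were unevenly placed. C1qa was at 814 CPM in cluster S14, with 4 control cells, and at 0.676 to 1.57 CPM in S0, S1, S2 and S3. The ratio of the class therefore does not describe its single clusters. The part of free macrophage RNA in the fibroblast values was not tested beyond these values. Krt8 was present in 28 of the 55 and in 39.4% of the other control fibroblast-like cells.

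Where in the fibroblasts the reads lay bears on the difference. Clusters S0, S1, S2 and S3, singled out after their values were seen, held 84 of the 102 control UMIs, at 13 to 20.3 CPM, in 321 control cells, and the knockout library had 26 cells in them, with 0 Csf1r UMIs. These clusters had Col1a1, Col1a2 and Col3a1 among their leading genes, as had S5, S7, S9, S11, S13 and S14, so these genes do not set them apart. With the 8 clusters that had at least 10 cells in each library weighted alike, which leaves S0, S2 and S3 out, the levels were 3.88 and 2.06 CPM and the log2 ratio -0.92, under 2-fold. Of those 8 clusters Csf1r was higher in 3, lower in 3 and without UMIs in 2, and no interval of a ratio excluded 1. A lower level per UMI within such cells and a smaller number of them cannot be told apart here. Thinned to 1000 UMIs, the shares of cells with a Csf1r UMI were 0.315% and 0%, too low to compare.

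**Figure D4:**
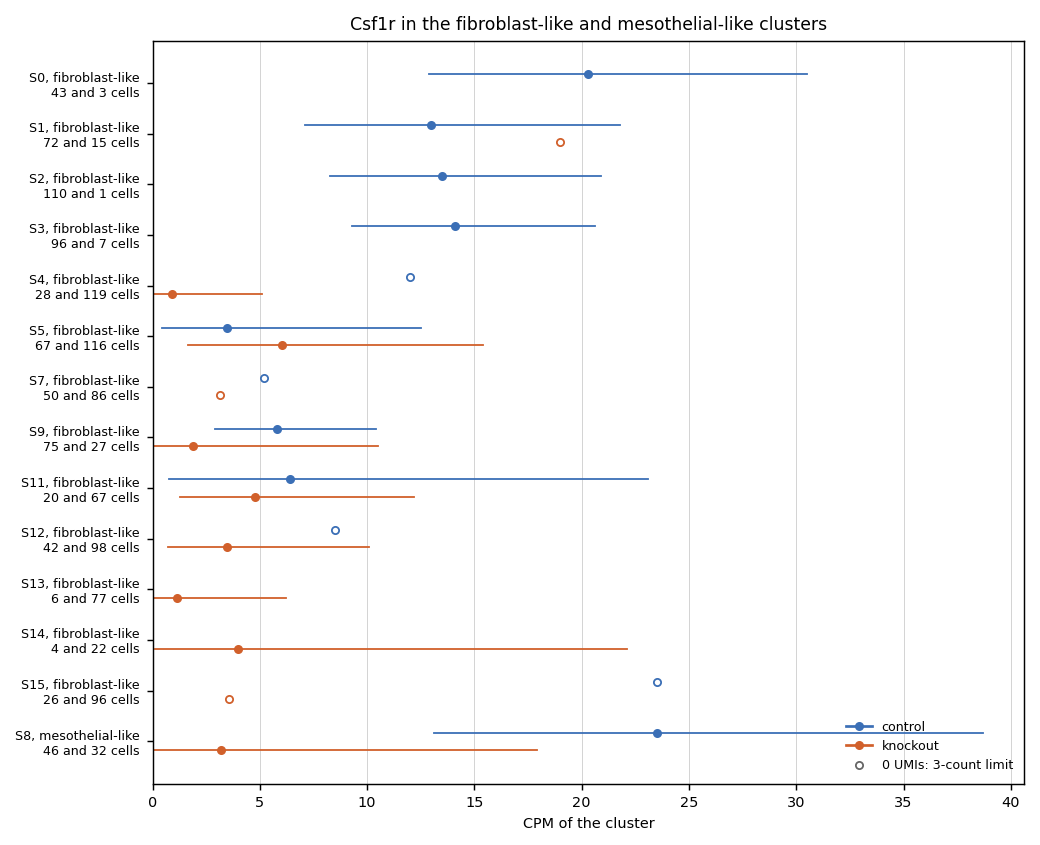
Csf1r in the fibroblast-like clusters and the mesothelial-like cluster S8, in CPM, control and knockout libraries side by side, with exact 95% Poisson intervals; a cluster with under 10 cells in a library is not drawn for it. S0 to S3 of the control library lie at 13 to 20.3 CPM and S8 at 23.5 CPM, against 3.21 CPM for S8 of the knockout library.

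Mesothelial-like cells had 15 Csf1r UMIs, or 23.5 CPM, in 46 control cells, with 1 C1q UMI among them, and 1 UMI, or 3.21 CPM, in 32 knockout cells, a ratio of 0.137 (0.00325 to 0.888). All 9 control mesothelial-like cells with Csf1r also had Csf1, which 28 of the 46 cells had, as did 39 of the 55 fibroblast-like cells, where 395 of 639 had it. Fibroblast-like cells with Csf1 were deeper, at a median of 15759 against 8425.5 UMIs, and the part of depth was not tested. Csf1r has Pdgfrb, a receptor gene of mural cells and fibroblasts, as its upstream neighbour on chromosome 18. Pdgfrb was at 77.2 and 138 CPM in fibroblast-like cells, the opposite direction to Csf1r, and at 663 and 863 CPM in pericyte or smooth muscle-like cells, which had 0 Csf1r UMIs. In the epithelial/tumour-like class Csf1r was at the other end, 0.240 CPM (23 UMIs) and 0.747 CPM (42 UMIs), a ratio of 3.11 (1.83 to 5.41) and a log2 ratio of 1.61. Csf1r was the only 1 of 6 members at least 2-fold higher there, beside 5.62% of genes, and Csf3r the only 1 at least 2-fold lower, beside 1.65%. Of the 42 knockout UMIs, 23 lay in cluster A22, led by Ttr, Pkhd1 and Dcdc2a, which had 2.88 and 16 CPM in 41 and 51 cells. Of the 31 knockout cells with Csf1r in the class, all 31 had Krt8, 4 had a C1q UMI and 4 had Ptprc.

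Csf2ra, the ligand-binding alpha chain of the GM-CSF receptor, was read at over 100 CPM in macrophage-like, monocyte-like, neutrophil-like and cDC1-like cells and at a low level in tumour cells. Macrophage-like cells had 142 CPM (126 to 159, 290 UMIs) and 118 CPM (104 to 135, 232 UMIs), monocyte-like cells 153 CPM (76 UMIs) and 192 CPM (262 UMIs), neutrophil-like cells 193 CPM (159 UMIs) and 169 CPM (78 UMIs), and cDC1-like cells 148 CPM (64 UMIs) and 157 CPM (176 UMIs). The clusters of macrophage-like cells parted: in L0 the level was 141 and 88.7 CPM, a ratio of 0.630 (0.481 to 0.819), and in L3 it was 144 and 146 CPM. Tumour-type cells, though low per UMI, held 51.1% of all Csf2ra UMIs in the control and 42.2% in the knockout library. In the epithelial/tumour-like class Csf2ra was at 6.35 CPM (608 UMIs) and 8.72 CPM (490 UMIs), a ratio of 1.37 (1.22 to 1.55), and Csf2ra was higher in 9 and lower in 2 of the 11 tumour clusters. Fibroblast-like cells went the other way, at 12.2 CPM (120 UMIs) and 8.17 CPM (59 UMIs), a ratio of 0.668 (0.481 to 0.92). Pericyte or smooth muscle-like and endothelial-like cells had no Csf2ra UMI.

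The promoter window of Csf2ra is shown because its expression followed the myeloid classes, and the capitals mark adjoining matches of GAGGAA, the core of sites for the myeloid factor PU.1, from 14 to 3 bases before the RefSeq start. It lies at chr19:61228419-61228668 on the minus strand of GRCm38.p6.
Csf2ra: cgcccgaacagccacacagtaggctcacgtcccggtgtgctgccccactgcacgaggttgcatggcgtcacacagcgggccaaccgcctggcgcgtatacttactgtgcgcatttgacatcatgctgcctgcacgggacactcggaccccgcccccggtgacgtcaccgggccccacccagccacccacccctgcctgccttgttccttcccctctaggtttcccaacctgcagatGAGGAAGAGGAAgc
This short motif is common: 23.3% of the 32851 windows hold it on either strand.

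Csf2rb, the shared signalling chain, was highest in migratory dendritic-like cells, neutrophil-like cells and monocyte-like cells and was lower in knockout than control macrophage-like cells. Migratory dendritic-like cells had 334 CPM (23 UMIs, 17 cells) and 194 CPM (80 UMIs, 70 cells), a ratio of 0.581 (0.361 to 0.968). Neutrophil-like cells had 243 CPM (201 UMIs) and 273 CPM (126 UMIs), and monocyte-like cells 219 CPM (109 UMIs) and 187 CPM (255 UMIs). In macrophage-like cells it was at 129 CPM (114 to 145, 263 UMIs) and 92.4 CPM (79.4 to 107, 181 UMIs), a ratio of 0.718 (0.591 to 0.871) and a log2 ratio of -0.48, which was -0.18 at a coarser clustering. Inside the neutrophil-like class L16 had 529 and 370 CPM and L6 309 and 176 CPM, so both were lower in the knockout library although the class as a whole was not. Plasma-like cells carried 19.8 CPM (13 UMIs) and 26.2 CPM (78 UMIs).

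Endothelial-like cells had Csf2rb without its alpha chain: 41 UMIs, or 134 CPM, in 44 control cells and 6 UMIs, or 31.3 CPM, in 23 knockout cells, a ratio of 0.234 (0.0812 to 0.554). Csf2rb2, the mouse copy that serves the IL-3 receptor alone, was in the same cells at 131 CPM (40 UMIs) and 47.0 CPM (9 UMIs). In macrophage-like cells Csf2rb2 was at 35.7 and 36.8 CPM, in monocyte-like cells at 50.3 and 63.7 CPM and in neutrophil-like cells at 33.9 and 41.1 CPM. The copies lie beside each other, Csf2rb at chr15:78325752-78353847 on the plus strand and Csf2rb2 at chr15:78282507-78305721 on the minus strand of GRCm38. Since they are near-identical, the first 150 coding bases of each are shown, with the 6 bases that differ in capitals.
Csf2rb: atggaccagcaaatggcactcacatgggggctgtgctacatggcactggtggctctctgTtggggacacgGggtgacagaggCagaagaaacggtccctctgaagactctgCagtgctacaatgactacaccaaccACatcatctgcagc
Csf2rb2: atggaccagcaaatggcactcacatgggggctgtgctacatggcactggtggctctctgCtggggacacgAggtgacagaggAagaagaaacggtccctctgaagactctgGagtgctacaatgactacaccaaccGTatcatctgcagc
Their coding sequences of 2688 and 2634 bases were 95.2% identical over 2628 aligned bases. Of the windows of 90 bases in the Csf2rb transcript 8.19% were also in Csf2rb2, but 0 of the 411 windows in its last 500 bases, the part that 3′ reads mostly come from. Reads from further upstream could be split between the copies, so both values are uncertain to that extent.

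Both chains of the GM-CSF receptor in 1 cell were found in 73 of 319 control and 54 of 290 knockout macrophage-like cells. Of control cells with Csf2ra, 50.3% also had Csf2rb, against 29.9% of cells without it, and in the knockout library 45.4% against 24.0%. The cells with Csf2ra were also deeper, at a median of 5873 against 3140 UMIs in the control and 7302 against 4164 in the knockout library, and the part of depth was not tested. In monocyte-like cells the shares were 33.9% against 31.7% and 41.5% against 44.0%. Cells with both chains numbered 21 and 66 among monocyte-like, 47 and 27 among neutrophil-like and 16 and 44 among cDC1-like cells. In the tumour-type classes, which held nearly all Csf2 UMIs and much of the Csf2ra, cells with both chains numbered 3 and 1 in the epithelial/tumour-like class and 1 and 0 in the unnamed clusters.

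Csf3r, the G-CSF receptor, was a neutrophil gene in both libraries and differed little there. Neutrophil-like cells had 940 UMIs, or 1139 CPM (1067 to 1214), and 569 UMIs, or 1232 CPM (1133 to 1338), a ratio of 1.08 (0.973 to 1.20). They held 82.2% and 68.7% of all Csf3r UMIs. By cluster it was highest in L6, at 3005 and 3510 CPM, lower in L16, at 1380 and 1151 CPM, and least in the granule-gene cluster L10, at 184 and 105 CPM. That order is not the order of Csf1, which was highest in L16. Of control neutrophil-like cells with Csf1, 80.9% also had Csf3r, against 82.8% of those without, and 74.2% against 80.4% in the knockout library. Monocyte-like cells had 62.4 CPM (31 UMIs) and 92.3 CPM (126 UMIs), and macrophage-like cells 35.7 CPM (73 UMIs) and 49.0 CPM (96 UMIs). In the epithelial/tumour-like class there were 19 UMIs, or 0.199 CPM, and 2 UMIs, or 0.0356 CPM, a log2 ratio of -1.97. The neutrophil gene S100a8 was lower in the same class too, at 4.04 and 0.836 CPM, and its part in the Csf3r value was not tested.

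For each member with at least 200 UMIs, the 3 genes whose levels followed it most closely were taken over 22 profiles, 11 classes in 2 libraries, by Pearson's r of log2(CPM + 10). The profiles share library, depth and class, so r is a description. Only named classes were used, so the unnamed tumour-type clusters had no part in r. Those clusters held 82.0% of control and 77.1% of knockout Csf2 UMIs, and 57.7% and 54.1% of Il34 UMIs. Pericyte or smooth muscle-like cells, the class highest in Il34, were also left out, with 9 cells in the knockout library. Csf3r was closest to Mmp8 (0.994), Fpr2 (0.992) and Cd33 (0.991), and Csf1r to Clec4a3 (0.965), Hmox1 (0.956) and Fcgr1 (0.955). Those of Csf2rb included Spi1 (0.977) and its copy Csf2rb2 (0.946), and those of Csf2ra included Aph1c (0.972) and Alox5ap (0.965). Among the ligands, Il34 was closest to Kirrel (0.980), Mir100hg (0.973) and Sox5os4 (0.972), and Csf2 to Mcpt4 (0.964), Kcnc2 (0.943) and Exph5 (0.939). In the profiles used, Csf2 was highest in control T-like cells, at 9.03 CPM from 6 UMIs. The next was the control epithelial/tumour-like class at 1.56 CPM. With 10 CPM added to each value, the r of Csf2 rests mainly on the T-like profile and does not describe its main source. Csf1, which has several high classes, had the loosest neighbours: Megf9 (0.881), Ccdc126 (0.871) and Mir22hg (0.864).

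The pathway below the receptors was read from 10 lists of 56 genes. In macrophage-like cells none of 7 JAK-STAT genes passed 2-fold (median log2 ratio 0.08, against 0.00 for all genes), nor did any of 7 feedback inhibitors (0.32), of 8 CSF1R partners and myeloid factors (0.09), of the 2 receptor-shedding proteases Adam10 and Adam17 (0.04) or of 2 measured genes of the IL-3 and IL-5 group (0.07). Among the partners Tyrobp was at 1493 and 1589 CPM and Spi1, which encodes PU.1, at 261 and 339 CPM. Of the related receptors and ligands Kit, Kitl, Flt3 and Flt3l, 1 was measured there and did not pass. In monocyte-like cells, of the 8 partners 1 was at least 2-fold higher, Tyrobp at 797 and 2066 CPM, beside 6.81% of all genes, and the median was 0.35 against -0.06. The monocyte-like class was made up differently in the libraries: L2 had 159 control and 120 knockout cells, L4 34 and 146, and L7, which Tyrobp is among the genes leading, 8 and 93. The part of this makeup in the monocyte-like values was not tested.

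Genes known to respond to GM-CSF were measured beside the lower Csf2. In macrophage-like cells 5 of the 7 had enough UMIs, 0 were at least 2-fold higher and 2 at least 2-fold lower, beside 2.71% and 3.73% of all genes, and the median was -0.64 against 0.00 for all genes. Those past 2-fold were arginase 1 (Arg1), at 3859 CPM (7884 UMIs) and 1919 CPM (3759 UMIs) with a log2 ratio of -1.01, and the chemokine gene Ccl17, at 33.3 CPM (68 UMIs) and 12.3 CPM (24 UMIs) with -1.40. Itgax, an integrin of dendritic cells and macrophages, was at 132 and 84.2 CPM, while Cd74, the invariant chain of antigen presentation, was at 7450 and 10174 CPM and Pparg at 15.7 and 23.5 CPM. Cluster L0, which Arg1 is among the genes leading, had 162 control and 92 knockout cells, and the part of cluster makeup in the Arg1 value was not tested. In monocyte-like cells 2 of 5 were at least 2-fold lower, beside 7.46% of all genes: Arg1 at 2074 and 752 CPM and Pparg at 32.2 and 10.3 CPM, with a median of -0.82. Neutrophil-like cells, in which both receptor chains were also read, went the other way. Of 2 genes measured 1 was at least 2-fold higher, Cd74 at 107 and 617 CPM, beside 7.42% of all genes. The median was 1.71, with Itgax at 50.9 and 95.3 CPM. The macrophage C1q genes were also higher in this class, at 4.85 CPM (4 UMIs) and 88.8 CPM (41 UMIs). Cluster L16 held 135 of its 293 control and 142 of its 185 knockout cells. The part of macrophage RNA and of cluster makeup in these values was not tested. In fibroblast-like cells 3 of 4 were at least 2-fold lower and 1 higher, beside 6.9% and 8.05% of all genes (median -1.56). The C1q genes were also lower in fibroblast-like cells, at 13.2 CPM (130 UMIs) and 4.98 CPM (36 UMIs). The part of macrophage RNA and of cluster makeup in the fibroblast-like values was not tested. T-like cells had 2 of 4 lower, beside 5.79% (median -0.74), and the unnamed tumour-type clusters 1 of 4, beside 4.79% (median -0.14). None of 3 passed in epithelial/tumour-like cells (median -0.08). Over all kept cells, where class makeup also counts, 2 of 7 were higher and 0 lower, beside 11.7% and 2.69% of all genes. The median there was 0.36, and no direction was common to all classes.

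Of genes that answer to G-CSF in the neutrophil lineage, all 6 were measured in neutrophil-like cells, 0 were at least 2-fold higher and 2 at least 2-fold lower, beside 7.42% and 7.29% of all genes, with a median of -0.54 against -0.05. The granule genes Lcn2 (4803 and 2206 CPM) and Ltf (2298 and 899 CPM) were those past 2-fold. Cxcr2, the receptor of mature neutrophils, was at 584 and 476 CPM, Mmp9 at 477 and 362 CPM, Mmp8 at 299 and 227 CPM and Cebpe, a factor of granule formation, at 211 and 130 CPM. The Camp and Ltf cluster L10 had 54 control and 11 knockout cells, and S100a8, a leading neutrophil gene, was at 55979 and 26107 CPM in the class. The part of cluster makeup in them was not tested.

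Among the classes read, the cytokines that induce CSFs had their highest median log2 ratio in neutrophil-like cells. Csf1 passed 2-fold in the same class, and a link between them was not tested. In neutrophil-like cells 3 of 8 were measured and 2 were at least 2-fold higher, beside 7.42% of all genes, with a median of 1.49: Tnf at 219 and 630 CPM and Il1a at 72.7 and 206 CPM, while Il1b was at 3761 and 6067 CPM. By cluster, Il1b was at 6344 and 7965 CPM in L16, 8800 and 6907 CPM in L6 and 46.6 and 248 CPM in L10. L16 made up 135 of 293 control and 142 of 185 knockout cells of the class, and L10 had 54 and 11. The part of cluster makeup in these neutrophil-like values was not tested. In T-like cells 2 of 3 were at least 2-fold lower, beside 5.79% of all genes: Ifng at 560 and 183 CPM and Il33, with 6 and 28 UMIs, at 9.03 and 4.14 CPM. The median was -1.30 against -0.07, and the T-like clusters differed in proportion as given for Csf1. Krt8, which T cells should lack, was at 61.7 and 40.3 CPM in the T-like class. The part of tumour RNA in the T-like Il33 value was not tested. In the unnamed tumour-type clusters, which held most Csf2, 1 of 3 was at least 2-fold lower, beside 4.79% of all genes, Il1b with 60 and 15 UMIs, and the alarmin gene Il33 was at 373 and 270 CPM.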

How the data were processed

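Tumours digested with collagenase and DNase had given 1 droplet library a group, and the deposited UMI count matrices, whole-number counts per gene and barcode, were analysed. Per the file headers they were written by Cell Ranger 8.0.0, while the submitters' processing notes name Cell Ranger 3.1.3 and the build mm10; which made the counts was not settled. The matrices held 13766 control and 12251 knockout barcodes with 173934025 and 137527647 UMIs.

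A barcode was kept from 500 detected genes upwards if no more than 15% of its UMIs were mitochondrial (11664 and 10808 passed), and Scrublet in scanpy 1.11.5 removed 148 (1.27%) and 341 (3.16%) as doublets. Clusters (Leiden, resolution 1, 2000 variable genes, 30 components) were built with the 8 members left out and named from marker lists, a name needing at least 3 detected markers. UMIs were summed per class and library and divided by the class total. Log2 ratios used a pseudocount of 1 UMI, and "passed 2-fold" required at least 20 UMIs over both libraries and was computed for all genes of a class. A gene was called measured with at least 20 UMIs. Zero counts were bounded by 3 counts. All members were named in the named classes, list genes by counts with examples of the highest level and of those past 2-fold. Some list and neighbour genes are not reported here. Members and lists were chosen with earlier results of these data known. Positions and coding sequences came from GENCODE for GRCm38 and promoters from RefSeq. The ratio intervals were tested on simulated data. Tried alternatives were the cell filters, doublets, clustering, naming, pseudocount, scaling and thinning.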

Additional observations from a re-analysis of the deposited data

Results flagged for a closer look

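Csf1r differed in direction between classes in the same contrast. Its log2 ratio of knockout over control was 1.61 in the epithelial/tumour-like class, from 23 and 42 UMIs, and -2.24 in fibroblast-like cells, from 102 and 15 UMIs, and -1.96 in mesothelial-like cells, from 15 and 1 UMIs. Each direction is that of 1 library against 1 library, and the difference between classes was not tested. Of the 42 knockout UMIs in the epithelial/tumour-like class, 23 lay in cluster A22, and whether its cells are tumour cells was not tested. Of the 8 fibroblast-like clusters compared, Csf1r was higher in 3 and lower in 3, and no interval of a ratio excluded 1.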

How the results depend on the processing

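Each value below is a log2 ratio of knockout over control unless called a share, set against its value in the report. A pseudocount of 5 UMIs and a total without the 50 most abundant genes left all 19 ratios within their intervals. A stricter cell filter (1000 genes, 10% mitochondrial) gave -0.13 for Csf2 in the epithelial/tumour-like class, 0.61 for Csf3r and 2.35 for Csf1 in neutrophil-like cells, -1.93 for Csf2 in the unnamed tumour-type clusters, and 0.81 for Csf2rb and 0.36 for Csf3r over all kept cells. A looser filter gave -0.13 for Il34 in the epithelial/tumour-like class and -2.12 for Csf2 in the unnamed clusters. With doublets kept, the epithelial/tumour-like class had -0.16 for Csf1, -0.34 for Il34 and 0.64 for Csf2ra. Leiden resolution 0.5 gave -0.18 for Csf2rb in macrophage-like cells, and resolution 2 gave -1.75 for Csf2 in the unnamed clusters. With members allowed among the variable genes, Il34 and Csf2 in the epithelial/tumour-like class were -0.11 and -1.23, and Csf2 in the unnamed clusters -1.20. When markers were scored cell by cell, Csf1 and Il34 in the epithelial/tumour-like class were -0.11 and 0.06, and Csf1r in macrophage-like cells 0.01. As means over cells, Il34 and Csf2 in the epithelial/tumour-like class were 0.38 and -1.33, Csf3r and Csf1 in neutrophil-like cells -0.22 and 0.73, Csf2 in the unnamed clusters -1.12, and over all cells Csf1 0.24, Il34 -0.29, Csf2ra 0.14, Csf2rb 0.10 and Csf3r -0.58. With clusters weighted alike, a setting chosen after seeing the data, Csf1, Il34 and Csf2 in the epithelial/tumour-like class were -0.18, -0.03 and -1.40, Csf3r and Csf1 in neutrophil-like cells -0.05 and 0.38, and Csf1 and Csf1r in fibroblast-like cells -0.07 and -0.92. The ratios of Csf1 and Il34 in the epithelial/tumour-like class, of Csf1 in fibroblast-like cells and of Csf3r thus changed sign under some settings, none of these past 2-fold. With clusters weighted alike, Csf1 in neutrophil-like cells and Csf1r in fibroblast-like cells were under 2-fold, as was the first as a mean over cells. Csf2 stayed lower in every setting run. Csf2 in the epithelial/tumour-like class crossed 2-fold in 3 of them, and the unnamed clusters stayed past 2-fold in all. The cause was not tested.

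At 2000 UMIs per cell the share of neutrophil-like cells with Csf1 was 14.2% and 47.3%. Without thinning 89 of 293 control and 93 of 185 knockout cells had it (50.3% in the knockout library). The class medians were 1709 and 1874 UMIs, so most of its cells were too shallow and were left out. Cluster L10, with a median of 5527 UMIs, had 54 control and 11 knockout cells. These shares are thus not a check on the same cells. The share of macrophage-like cells with Csf1r at 2000 UMIs was 37.5% and 43.7% (59.9% and 69.7% without thinning). Counting only genes with at least 100 UMIs lowered 12 of 16 background shares by over 1.5 times, to 1.86% and 0.934% (higher and lower) in the epithelial/tumour-like class, 5.32% and 4.33% in fibroblast-like, 1.15% and 1.15% in macrophage-like, 2.12% and 1.18% in T-like and 0.762% and 2.92% in unnamed tumour-type cells, and to 4.05% and 4.18% lower in monocyte-like and neutrophil-like cells. No paired analysis was possible because each group had 1 library. Pooled mice, 1 library a group and sequencing depth limit all values: a class of under 50 cells, such as knockout pericyte-like cells, gives wide intervals.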
